A study of Mus musculus with 192 samples.

Results

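Divergent promoters are stretches from which a gene on each DNA strand is read, in opposite directions. The present account covers the accessible windows at such promoters of protein-coding genes. A window was a member when its midpoint lay within 1 kb of a protein-coding transcript start on the plus strand and also within 1 kb of one on the minus strand that belonged to another gene, in the GENCODE vM1 annotation of the mouse build mm9 (NCBIM37). The rule took 1701 of the 50000 deposited windows, or 3.40%, and 10.9% of the 15589 windows with a protein-coding start within 1 kb. No measured value other than position entered the rule.

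The windows came from Pi-ATAC, in which Tn5 transposase cuts open chromatin of fixed cells, antibody signal is recorded by index sorting, and each cell becomes a library of its own. The cells were a mixture of 4T1, a mouse breast cancer cell line stained for EpCAM, and splenocytes stained for CD45 from the spleen of an MMTV-PyMT mouse that had no tumour. MMTV-PyMT animals carry the polyoma middle T oncogene under a promoter active mainly in mammary epithelium. There were 96 cells of each kind by sample title, and 1 cell titled as 4T1 carried the source name of splenocytes (95 and 97 cells by source name). The deposited list pooled the cells into 1 set of 500 bp windows centred on peak summits, with no score and no count per cell, so 4T1 cells could not be set against splenocytes here and no comparison had replicates. All shares below are therefore descriptions of 1 list. Their 95% Wilson intervals treat windows or genes as independent and cover counting error only, and 39.4% of the members overlapped another member.

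In mammals many housekeeping genes, among them genes of DNA repair, mitochondria and the protein synthesis machinery, sit head-to-head with a neighbour. The shared stretch is usually a CpG island without a TATA box, and RNA polymerase II starts in both directions from separate initiation sites around a common nucleosome-poor region. Bound factors such as those of the ETS, NRF1, NF-Y, SP and YY1 families are typical of these islands.

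The stretches at the starts of well-known pairs show how these words are placed, and also that they can be missing. The following are plus-strand sequences of mm9 that run from 20 bases inside the minus-strand gene (left) to 20 bases inside the plus-strand gene (right), and capitals mark the words that were searched. The Hspd1/Hspe1 promoter (chr1:55144848-55144996) separates the genes of the mitochondrial chaperonin and its co-chaperonin, and holds the ETS word on both strands in an overlapping palindrome. The Sirt3/Psmd13 promoter (chr7:148067748-148067887), between a mitochondrial deacetylase gene and a proteasome subunit gene, holds the SP/KLF word 3 times. The Psmb9/Tap1 promoter (chr17:34324677-34324767) lies between genes of an immunoproteasome subunit and a peptide transporter of antigen presentation. The Wrap53/Trp53 promoter (chr11:69393737-69393881) lies before the genes of a telomerase-associated protein and of p53, and its only marked word, an E-box, starts inside Trp53. Of the Atm/Npat promoter, between genes of a DNA damage kinase and a histone gene activator, 300 bases are shown (chr9:53344849-53345148), and none of the searched words was in them. They end short of both starts. The 500 bp member window at the centre of this gap reaches beyond them and held the ETS and TATA words. The NF-Y word searched for, CCAATNAG, is longer than CCAAT alone, which these 300 bases do hold.
Hspd1/Hspe1: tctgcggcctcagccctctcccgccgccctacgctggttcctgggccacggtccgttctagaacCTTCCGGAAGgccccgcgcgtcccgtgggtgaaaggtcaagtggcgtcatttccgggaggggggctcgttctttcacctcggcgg
Sirt3/Psmd13: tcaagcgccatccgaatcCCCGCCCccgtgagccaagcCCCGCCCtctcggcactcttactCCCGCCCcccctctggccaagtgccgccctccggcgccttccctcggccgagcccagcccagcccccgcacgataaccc
Psmb9/Tap1: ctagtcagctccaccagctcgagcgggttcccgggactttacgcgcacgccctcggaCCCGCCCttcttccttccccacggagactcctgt
Wrap53/Trp53: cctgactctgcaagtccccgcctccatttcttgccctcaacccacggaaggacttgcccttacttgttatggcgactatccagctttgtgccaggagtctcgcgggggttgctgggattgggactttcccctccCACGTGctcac
Atm/Npat: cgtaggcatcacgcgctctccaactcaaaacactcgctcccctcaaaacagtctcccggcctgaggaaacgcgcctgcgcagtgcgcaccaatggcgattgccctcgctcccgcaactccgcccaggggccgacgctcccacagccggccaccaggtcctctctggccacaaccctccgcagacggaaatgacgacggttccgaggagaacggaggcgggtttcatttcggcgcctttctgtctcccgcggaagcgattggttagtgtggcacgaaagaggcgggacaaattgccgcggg

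The next stretches are shown for their different composition, the first 2 being poor in CpG and the last having a GC content of 45.1% but many CpG for that content. Tmem176b/Tmem176a (chr6:48791353-48791502), which encode related membrane proteins of immune cells, are separated by 109 bp without a single CG between the printed ends. 2010002M12Rik/Ifit1 (chr19:34715213-34715381) lies before Ifit1, an interferon-induced antiviral gene, and holds the IRF word 3 times, with 2 of the copies overlapping. Hist1h2an/Hist1h2bp (chr13:21879067-21879350) is a pair of replication-dependent histone genes of the H2A and H2B kinds, with an NF-Y word and a TATA word. The TATA word is 58 bp from the minus-strand start and 180 bp from the plus-strand start. The histone pair was chosen after its values were seen.
Tmem176b/Tmem176a: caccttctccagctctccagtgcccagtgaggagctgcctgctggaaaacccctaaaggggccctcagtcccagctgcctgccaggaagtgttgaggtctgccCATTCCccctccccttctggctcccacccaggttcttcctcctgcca
2010002M12Rik/Ifit1: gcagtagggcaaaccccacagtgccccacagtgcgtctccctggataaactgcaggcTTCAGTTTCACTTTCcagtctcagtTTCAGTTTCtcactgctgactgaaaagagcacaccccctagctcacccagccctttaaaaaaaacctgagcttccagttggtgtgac
Hist1h2an/Hist1h2bp: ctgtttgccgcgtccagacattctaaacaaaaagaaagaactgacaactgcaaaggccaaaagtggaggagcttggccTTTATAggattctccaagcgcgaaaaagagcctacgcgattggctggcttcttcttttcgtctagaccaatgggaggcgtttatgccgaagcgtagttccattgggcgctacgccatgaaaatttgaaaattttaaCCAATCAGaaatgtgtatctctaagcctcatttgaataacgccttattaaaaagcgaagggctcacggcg

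The term divergent was first checked against the order of the starts. Each member was placed at the pair of starts with the smallest summed distance to its midpoint. In 1387 members (81.5%, interval 79.6 to 83.3%) the minus-strand start lay to the left of the plus-strand start, so that transcription runs apart (head-to-head). In the other 314 the plus-strand start lay to the left and the first bases of both genes overlap. The latter are bidirectional but not divergent in the strict sense, and they are given separately as overlapping heads. The gap between the starts of head-to-head members had a median of 184 bp (quartiles 99 and 362), and the overlap in the other members had a median of 284 bp.

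The annotation held 1436 gene pairs with opposite-strand starts at most 2 kb apart, the farthest the rule allows, of which 1134 were head-to-head and 302 had overlapping heads. They involved 2832 of 22342 protein-coding genes. A member window was present at 1043 pairs (72.6%, interval 70.3 to 74.9%), at 75.5% of head-to-head pairs and at 61.9% of pairs with overlapping heads. Among pairs without a gene named Gm or Rik (predicted or unnamed models) the share was 78.2%, and among those with such a gene it was 60.2%. Single windows were found at 530 pairs, 2 windows at 363, 3 at 127, 4 at 22 and 5 at 1. Genes in pairs without a member window had promoters with a lower CpG ratio, the observed over the expected number of CG dinucleotides. It was measured over 500 bp on either side of the outermost start of each gene, which need not be the start that forms the pair. The median was 0.633 for the 778 genes in pairs without a member window and 0.775 for the 2061 genes in pairs with one. Some of the 778 genes had a window at a start of their own. Genes in several pairs can count in both.

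Genes in pairs had a window at their starts more often than other genes. A window midpoint lay within 1 kb of a start for 2215 of the 2832 genes in pairs (78.2%, interval 76.7 to 79.7%) and for 8171 of the 19510 other genes (41.9%, interval 41.2 to 42.6%), against 46.5% of all protein-coding genes. Genes in pairs also had CpG-richer promoters, measured at the outermost start of each gene (median ratio 0.751 against 0.482). Weighted to the CpG ratios of the genes in pairs, the share of other genes was 63.5%. Within single ranges of the ratio, 41.5% of genes in pairs and 18.4% of others had a window at ratios of 0.2 to 0.4, 83.0% and 69.4% at 0.6 to 0.8, and 81.5% and 81.1% at ratios of 1 and over, where the intervals overlapped. A shared window counts for both genes of a pair. Genes in pairs also had more annotated starts (median 2 against 1), and among genes with a single start the shares were 72.5% and 30.4%, a comparison added after the data were seen.

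The share of head-to-head pairs with a window changed little with the gap up to 300 bp. It was 88.1% (interval 82.1 to 92.2%) at gaps of 1 to 50 bp, 83.1% at 51 to 100 bp, 82.5% at 101 to 200 bp and 84.9% at 201 to 300 bp. It was 73.5% (interval 64.2 to 81.1%) at 501 to 1000 bp. At gaps of 1001 to 2000 bp it was 21.5%, where the rule itself leaves only a narrow stretch within reach of both starts, and 57.1% of the genes in these wide pairs had a window at a start of their own.

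Summits lay close to the starts. The midpoint of a member was a median of 92 bp from its nearest start (quartiles 39 and 234), against 169 bp (quartiles 68 and 457) for the 13888 windows that had coding starts within 1 kb on 1 strand only, called one-strand promoter windows below. Members had 2 chances of a near start, which the one-strand windows did not. Of the head-to-head members 572 (41.2%, interval 38.7 to 43.9%) had the midpoint between the starts, 29.3% lay on the side of the minus-strand gene and 29.4% on the side of the plus-strand gene. The share between the starts grew with the gap, from 8.33% at 1 to 50 bp to 37.2% at 101 to 200 bp, 49.7% at 301 to 500 bp and 65.2% at 501 to 1000 bp, and a wider gap holds more positions. The 815 midpoints beyond the starts lay a median of 122 bp inside a gene.

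**Figure D1:**
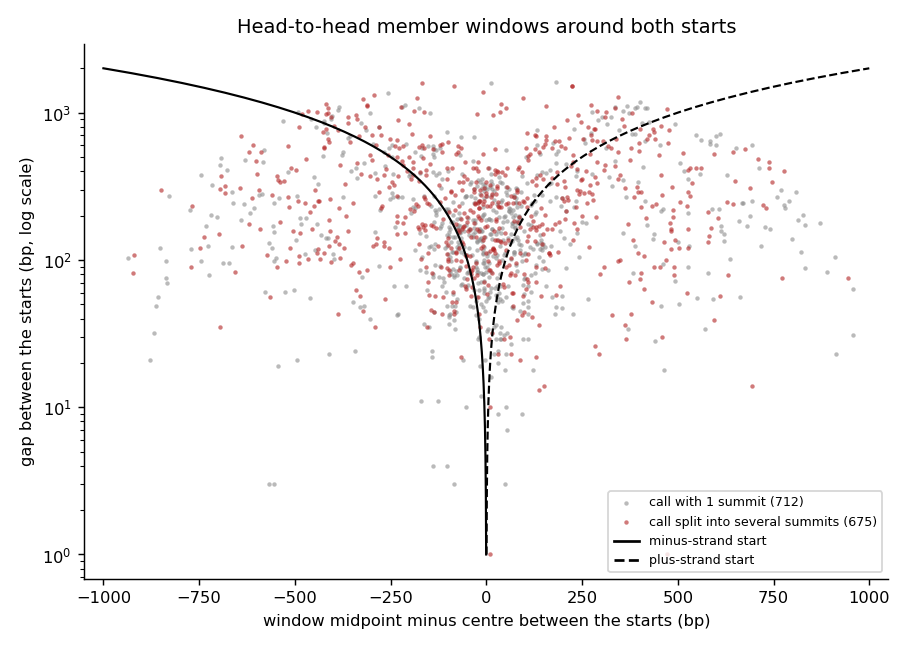
Position of the 1387 head-to-head member windows (points), as the midpoint minus the centre between both starts in bp (x axis), against the gap between the starts in bp (log y axis). The lines mark the minus-strand start (solid) and the plus-strand start (dashed), red points come from calls that were split into several summits, and 572 points lie between the lines with about equal numbers to the left (407) and right (408).

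**Figure D2:**
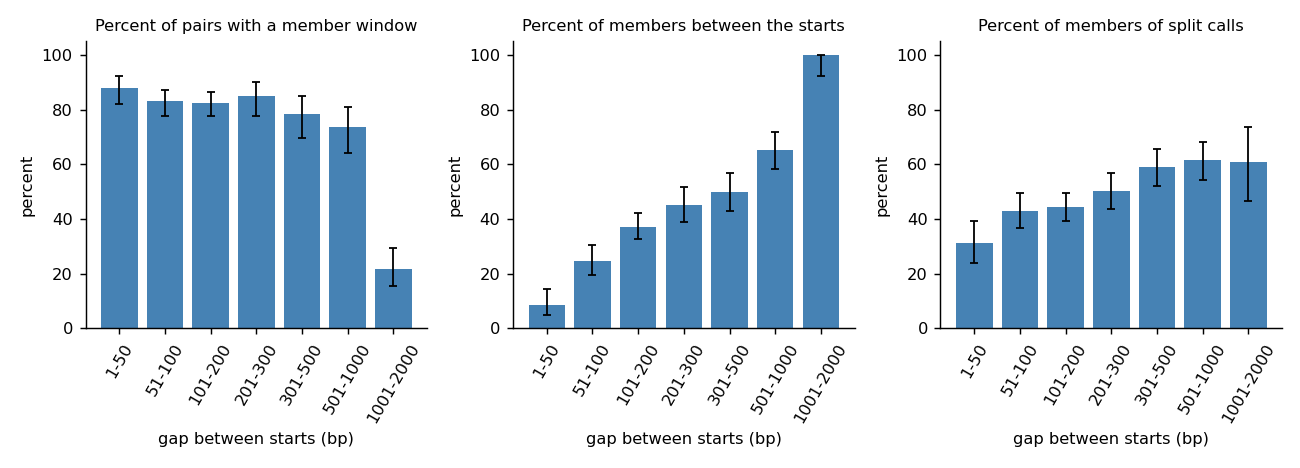
Percent of head-to-head pairs with a member window, of member windows with the midpoint between the starts, and of member windows from calls split into several summits, by gap between the starts in bp, with 95% Wilson intervals as error bars. The first falls from 88.1% to 21.5% at the widest gaps, which the rule limits, and the other shares rise with the gap, to 65.2% and 61.4% at 501 to 1000 bp.

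Member windows came more often than one-strand windows from calls that the peak caller had split into several summits. Such calls carry letters in the peak names. They gave 796 of the 1701 members (46.8%, interval 44.4 to 49.2%), 33.7% of one-strand windows (interval 32.9 to 34.5%) and 10.6% of the 34411 windows with no coding start within 1 kb, against 18.2% of all windows. Weighted to the members' CpG ratios the one-strand share was 34.6%. In head-to-head members the share was 48.7% and in overlapping heads 38.5%. It rose with the gap, from 31.1% (interval 23.8 to 39.4%) at 1 to 50 bp to 50.2% at 201 to 300 bp and 61.4% (interval 54.2 to 68.1%) at 501 to 1000 bp. Another summit of the same call was in the list for 788 of the 796. Where a head-to-head pair had exactly 2 member windows (301 pairs), both came from 1 call in 183. In 184 of the 301 the summits lay on opposite sides of the centre between the starts, a median of 532 bp apart, and in 90 there was 1 inside each gene.

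Well-known pairs showed these forms singly. All 22 textbook pairs that were listed met the distance rule, and 12 had a member window. At Brca1/Nbr1, where the gene of a DNA repair protein faces that of an autophagy receptor, 1 call was split into 3 windows with midpoints 1 bp to the left of the centre between the starts and 251 and 285 bp to the right of it, each measured from the starts nearest to the window. Atm/Npat had 4 windows, of which 1 was centred 5.5 bp from the centre of its 307 bp gap and the others lay on either side of it. Hspd1/Hspe1 had 3 windows, of which 1 was at its 108 bp gap and the others inside Hspd1, 572 and 919 bp from the centre. Gart/Son, Sirt3/Psmd13 and Wrap53/Trp53 had 2 windows each, and Psmb9/Tap1, Tk1/Afmid, Ranbp1/Trmt2a and Duox2/Duoxa2 had 1 each.

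The other 10 textbook pairs had no member window. The type IV collagen genes, whose chains form the basement membrane network, are all arranged in pairs (Col4a1/Col4a2, Col4a4/Col4a3 and Col4a6/Col4a5), and none of the 6 genes had a window within 1 kb of a start. The sterol transporter pair Abcg5/Abcg8 had none either, nor did Duoxa1/Duox1 and Pdcd10/Serpini1, though Duoxa1 and Pdcd10 each had 1 window at a start outside the joint reach. Ppat/Paics (purine synthesis), Mcm4/Prkdc (a replicative helicase subunit and a DNA repair kinase), Surf1/Surf2 and Mrps12/Sars2 (mitochondrial translation) had no window although such genes are active in most dividing cells. Peak calls carry running numbers along the chromosome, and numbers without a window in the list lay between the nearest windows on either side of each of these 4 pairs, namely 5, 4, 2 and 3 calls. The stretches between those windows measured 68597, 151470, 8459 and 48546 bp. Missing numbers did not set these 4 pairs apart from the other textbook pairs without a member window. There were 15 at Col4a4/Col4a3, 6 each at Abcg5/Abcg8 and Col4a6/Col4a5, 1 each at Col4a1/Col4a2 and Duoxa1/Duox1, and 0 at Pdcd10/Serpini1. Across the 392 pairs without a member window that had a window on either side, at least 1 number was missing in between for 334 (85.2%) and none for 58. No like share was taken at other places of the genome. Whether a missing call lay at the promoter itself cannot be read from the list, so the absence of a window does not show closed chromatin.

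The most windows were found at Trip12/Fbxo36, the genes of a ubiquitin ligase and an F-box protein, whose 5 windows came from 1 split call and stretched from 619 bp left to 644 bp right of the centre of a 537 bp gap. Of the 22 pairs with 4 windows, those with the closest starts were Capza1/St7l, Gla/Hnrnph2, Nae1/Car7, Sphk2/Rpl18, Nsun6/Arl5b, Fbxo24/Lrch4, Psenen/U2af1l4, Dtx3l/Parp9 and Parp3/Rrp9. Dtx3l and Parp9 encode an E3 ligase and its partner ADP-ribosyltransferase that act together in the interferon response, and the first bases of the genes overlap by 139 bp. Gla/Hnrnph2, the genes of a lysosomal galactosidase and an RNA-binding protein, is a pair on the X chromosome, where 23 of 39 pairs had a window. In Sphk2/Rpl18 and Nsun6/Arl5b the windows fell into 2 groups at alternative starts.

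Members were rich in CpG. Their median CpG ratio was 0.785 (quartiles 0.648 and 0.892), against 0.715 (quartiles 0.514 and 0.852) for one-strand windows and 0.217 for windows away from coding starts, with median GC contents of 61.0%, 60.2% and 49.0%. A ratio of at least 0.6 was found in 80.2% of members and 66.7% of one-strand windows, and one below 0.4 in 6.58% and 16.5%. Strand composition followed the direction of reading on either side. GC skew, the excess of G over C as a share of both on the plus strand, had a median of -0.069 in the left and 0.057 in the right part of the 572 windows centred between starts. At one-strand windows the skew read in the direction of the gene was 0.013 in the upstream part and 0.053 in the downstream part. Members had their midpoint in a UTR in 36.4%, an intron in 26.3%, intergenic sequence in 22.2% and a coding exon in 12.6%. A start of a long non-coding RNA within 1 kb was found in 1.18% of members (interval 0.762 to 1.81%) and 6.86% of one-strand windows.

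The lowest CpG ratios in head-to-head pairs belonged to pairs of different kinds. At Tmem176b/Tmem176a the single window had a ratio of 0.0695 and at 2010002M12Rik/Ifit1 one of 0.0923, and there the stretch between the starts itself was poor in CpG. At Nsun6/Arl5b and Arfip2/Fxc1 the window with the low ratio was 1 of several. At Nsun6/Arl5b its midpoint lay 848 bp inside Arl5b. At Arfip2/Fxc1 it lay 85 bp before a start of Fxc1, at starts that overlap. A window at Tap2, whose protein partners that of Tap1 in peptide transport, had a ratio of 0.163, and it was placed at starts of Tap2 and the predicted gene Gm20496 that overlap. The windows at Ifit1, Tap2 and Psmb9/Tap1 each held the IRF word.

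Short words of 16 transcription factor families were counted on both strands. They were CCGGAAG (ETS), CGCATGCG (NRF1), CCAATNAG (NF-Y), GGGCGGG (SP/KLF), AAGATGGC (YY1), TGACGTCA (CRE), CACGTG (E-box), ACTACAA (ZNF143), TGANTCA (AP-1), AGGGGGCGC (CTCF), GAGGAAGT (PU.1), GAAANNGAA (IRF), TGTGGTT (RUNX), TTGGCA (NFI), GGAATG (TEAD) and, for the TATA box, TATAAA, where N is any base. None of the words contains another. A match is a string of letters and no evidence of binding. The intervals of members and one-strand windows did not overlap for 9 words, 6 higher in members and 3 lower.

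The ETS word showed the largest difference in percentage points. It was in 478 members (28.1%, interval 26.0 to 30.3%), in 17.8% of one-strand windows (20.0% after weighting to the members' CpG ratios) and in 3.88% of windows away from starts. Its share was alike in head-to-head members (28.0%) and overlapping heads (28.7%). The YY1 word was in 8.76% of members and 5.35% of one-strand windows (5.90% weighted), and the ZNF143 word in 6.94% and 4.98% (5.11% weighted). These 3 were the words whose whole interval stayed above the one-strand interval after weighting, without overlap. For the CTCF word the interval of members was below the one-strand interval without overlap after weighting only. It was in 2.06% of members and 2.82% of one-strand windows (3.16% weighted). NRF1 (4.59% against 3.05%), NF-Y (11.3% against 9.02%) and SP/KLF (51.9% against 48.6%) had overlapping intervals once CpG was weighted, and for SP/KLF the weighted one-strand share was higher, at 54.5%. NF-Y differed between arrangements, with 12.4% (interval 10.8 to 14.2%) of head-to-head members and 6.37% (interval 4.16 to 9.63%) of overlapping heads. Members also lay closer to a start (median 92 against 169 bp), and the shares were not weighted for that. In the central 200 bp only 2 words were separate, 1 higher and 1 lower in members. There ETS was in 14.4% of members and 9.72% of one-strand windows, YY1 in 2.65% and 2.30%, and ZNF143 in 3.35% and 2.34%.

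Words of factors known from enhancers and from cell-type programmes were rarer. The AP-1 word was in 7.52% of members, 11.2% of one-strand windows and 31.2% of windows away from starts. RUNX was in 4.64%, 6.50% and 13.6%, and the NFI word in 14.8%, 18.0% and 27.4%. After weighting, the intervals of these 3 overlapped those of one-strand windows. The words of PU.1 (3.35% against 3.92%), IRF (10.6% against 11.3%) and TEAD (17.3% against 19.5%) were not separate from one-strand windows.

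**Figure D3:**
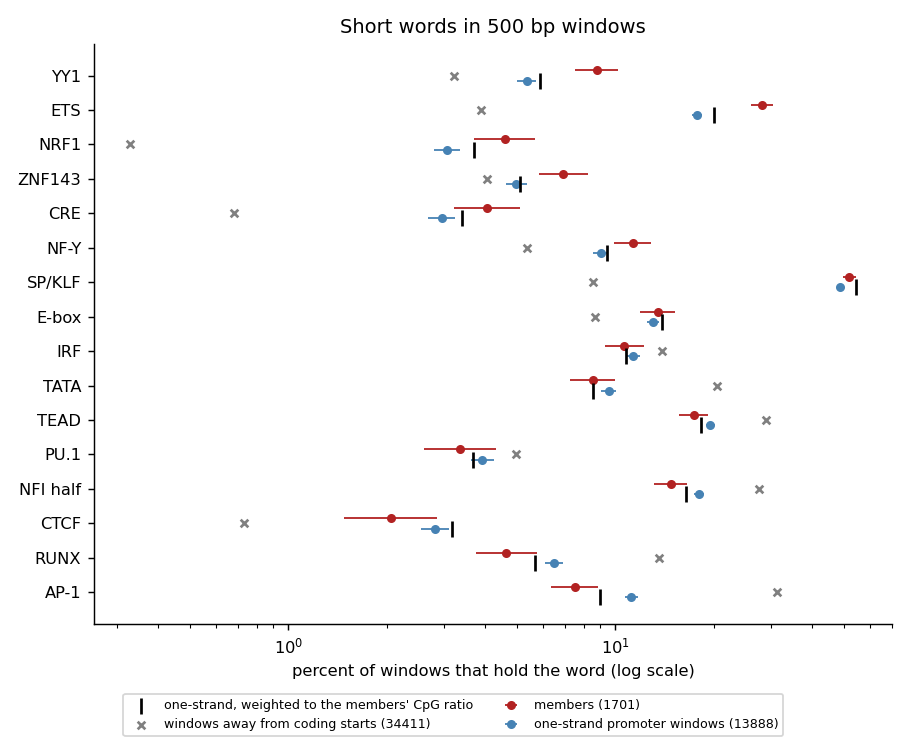
Percent of 500 bp windows that hold each of 16 words (log x axis), for 1701 member windows (red) and 13888 one-strand promoter windows (blue) with 95% Wilson intervals, the one-strand share weighted to the members' CpG ratio (black bar), and the 34411 windows away from coding starts (cross). ETS (28.1% against 17.8%) and YY1 (8.76% against 5.35%) stand to the right of both promoter references, and AP-1 is at 7.52% in members against 31.2% away from starts.

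Within a pair the words differed in their place. In the 491 head-to-head pairs with a window and a gap of 100 to 1000 bp, the stretch between the starts (141 kb in all) was set beside the first 250 bp of both genes (246 kb), which had nearly the same composition (GC 60.0% and 62.0%, CpG ratio 0.785 and 0.783). The NF-Y word is a longer form of the CCAAT box that is typical of sequence upstream of starts, so it misses other CCAAT boxes. It occurred 0.728 times per kb between the starts and 0.114 times per kb inside the genes, a ratio of 6.38 (exact 95% interval 4.17 to 10.1). The ratio was 4.63 (interval 1.72 to 14.4) for CRE, 3.74 for NRF1, 2.89 for ZNF143, 2.66 for SP/KLF and 1.54 (interval 1.16 to 2.03) for ETS. The YY1 word was the exception. It occurred 0.0990 times per kb between the starts and 0.248 times inside the genes, a ratio of 0.398 (interval 0.206 to 0.720), and 54 of its 61 copies inside genes read AAGATGGC in the direction of the gene.

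Most words had like ratios at starts without a partner. At 10550 one-strand starts the ratio of the 250 bp before to the 250 bp after the start was 6.25 for NF-Y, 5.02 for CRE, 4.26 for ZNF143, 3.54 for NRF1, 2.11 for SP/KLF, 1.46 for ETS and 0.399 for YY1, of which 404 of 501 downstream copies read in the direction of the gene. The intervals of pairs and one-strand starts overlapped for 15 of the 16 words, and the exception was SP/KLF, where the ratio was higher in pairs. For TATA the ratio was 1.49 (interval 0.882 to 2.49) in pairs and 2.79 (interval 2.41 to 3.25) at one-strand starts. In level, NF-Y occurred 0.728 times per kb between paired starts and 0.393 times per kb before one-strand starts. These stretches are unlike, since the bases between paired starts lie upstream of both starts and those before a one-strand start of only 1. Whether pairs hold more of the word at a like distance was not tested. A TATA word at 20 to 40 bp before a start, its usual place, was found at 4 of 2066 starts of pairs with a window (0.194%, interval 0.0753 to 0.497%) and at 659 of 39140 starts of other genes (1.68%). The sets are unlike, because the starts of other genes were not limited to those with a window. Other genes also had CpG-poorer promoters (median ratio 0.482 against 0.751 for genes in pairs), and the TATA shares were not weighted for CpG.

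**Figure D4:**
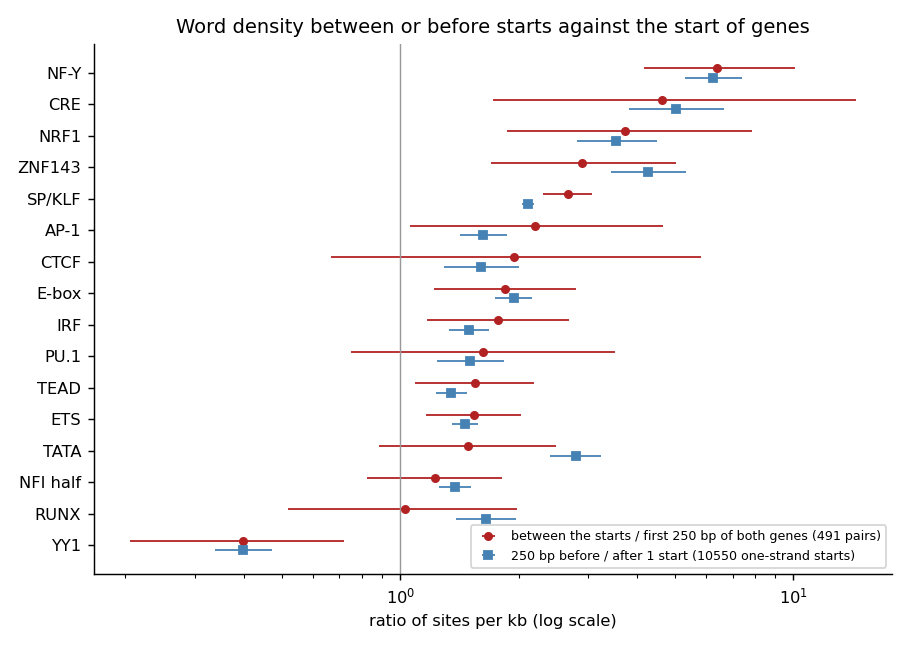
Ratio of word density (sites per kb, log x axis) between the starts to the first 250 bp of both genes in 491 head-to-head pairs (red), and in the 250 bp before to the 250 bp after 10550 one-strand starts (blue), with exact 95% intervals of the ratio. NF-Y is at 6.38 and 6.25, YY1 is the only word below 1 in both, at 0.398 and 0.399, and TATA is at 1.49 and 2.79.

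Gene families differed in how many of their members were in pairs. Of all protein-coding genes 12.7% were in a pair, and 72.8% of these had a member window. Mitochondrial ribosome genes were in pairs for 31 of 77, of which 19 had a member window. For respiratory chain genes the numbers were 30 of 92, and 26 with a window. Uqcrh/Lrrc41, with a subunit gene of complex III, had 4 windows, and Atp5h/Kctd2, Tatdn1/Ndufb9 and Atp5j/Gabpa had 3 each. Atp5j encodes an ATP synthase subunit, and Gabpa encodes an ETS factor known for control of respiratory genes. Of the windows of this pair, 1 held the ETS, NRF1, YY1 and PU.1 words. The others held the NFI word, and 1 of them also the TATA word. Aminoacyl-tRNA synthetase genes were in pairs for 12 of 34, with windows at 10, among them Hars/Hars2, where the genes of the cytosolic and the mitochondrial histidyl-tRNA synthetase face each other over 26 bp. Cytosolic ribosome genes were in pairs for 14 of 80, translation initiation genes for 9 of 57 and proteasome genes for 10 of 41, and 10, 8 and 9 of these had a window.

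Genes of genome maintenance were also common in pairs. DNA repair genes were in pairs for 27 of 66, of which 22 had a member window, with Dak/Ddb1 (3 windows) and Aimp2/Pms2 (2 windows) beside Atm and Brca1. Replication and cell cycle genes were in pairs for 15 of 60, and 13 had a window, as at Mcm7/Ap4m1, Prim2/1700001G17Rik and Pxmp2/Pole (3 windows each). Chaperone genes were in pairs for 13 of 31, with 10 at a window, and Cct5/Fam173b, with a subunit gene of the cytosolic chaperonin, had 4. RNA polymerase subunit genes were in pairs for 11 of 27 (7 with a window, 4 of the windows at Lnx2/Polr1d) and Mediator genes for 5 of 29 (all 5 with a window). Zinc finger genes named Zfp were in pairs for 31 of 371, with windows at 26, and SLC25 carrier genes for 7 of 44, with windows at 5.

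Histone genes formed pairs with each other. Of 67 clustered histone genes 37 were in pairs, and 21 pairs held a histone gene on either side, 12 of them head-to-head pairs of an H2A and an H2B gene. The gap of the 20 head-to-head histone pairs had a median of 267 bp. A member window was found at 11 of the 21 histone pairs, with 4 windows at Hist2h2ac/Hist2h2be, 3 at Hist1h2bl/Hist1h2ai and 2 each at Hist1h2an/Hist1h2bp, Hist1h2ae/Hist1h2bg, Hist1h2ag/Hist1h2bj and Hist1h2ah/Hist1h2bk. Among pairs with a window and a gap of 100 to 1000 bp, the NF-Y word lay between the starts in 6 of 9 histone pairs (66.7%, interval 35.4 to 87.9%) and in 92 of the 491 head-to-head pairs described above, which include them (18.7%, interval 15.5 to 22.4%). CCAAT alone also lay between the starts of histone pairs without the longer NF-Y word. It was there 4 times at Hist1h2bl/Hist1h2ai, 5 times at Hist1h2ag/Hist1h2bj and 3 times at Hist2h2ac/Hist2h2be. The TATA word lay between the starts in 5 of the 9 (55.6%, interval 26.7 to 81.1%) and in 27 of the 491 (5.50%, interval 3.81 to 7.88%). These counts took the word at any distance from a start. Of the 4 TATA words at 20 to 40 bp before a start, given above, 1 was at a histone gene. Histone genes of a cluster are near-identical, so reads that map to several copies could be lost or misplaced, and their windows are uncertain for that reason.

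Few lineage genes were in pairs, in counts too small to set them apart from other lists. Of 30 epithelial genes 1 was in a pair (Tjp3/Pip5k1c, without a member window), although 25 of the 30 had a window at a start. Of 36 leukocyte genes 3 were in pairs (8.33%, beside 12.7% of all protein-coding genes) and 18 had a window at a start. They were Lcp1, an actin-bundling protein gene that faces Lrrc63 and had 2 member windows, and the T cell receptor chain genes Cd3g and Cd3d, which face each other over 1362 bp without one. Interferon and antigen presentation genes were in pairs for 5 of 20, all with a member window. The 5 were counted by gene identifier, and Psmb9/Tap1 was entered more than once. Of 1435 olfactory and vomeronasal receptor genes 2 were in pairs, without a member window.

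**Figure D5:**
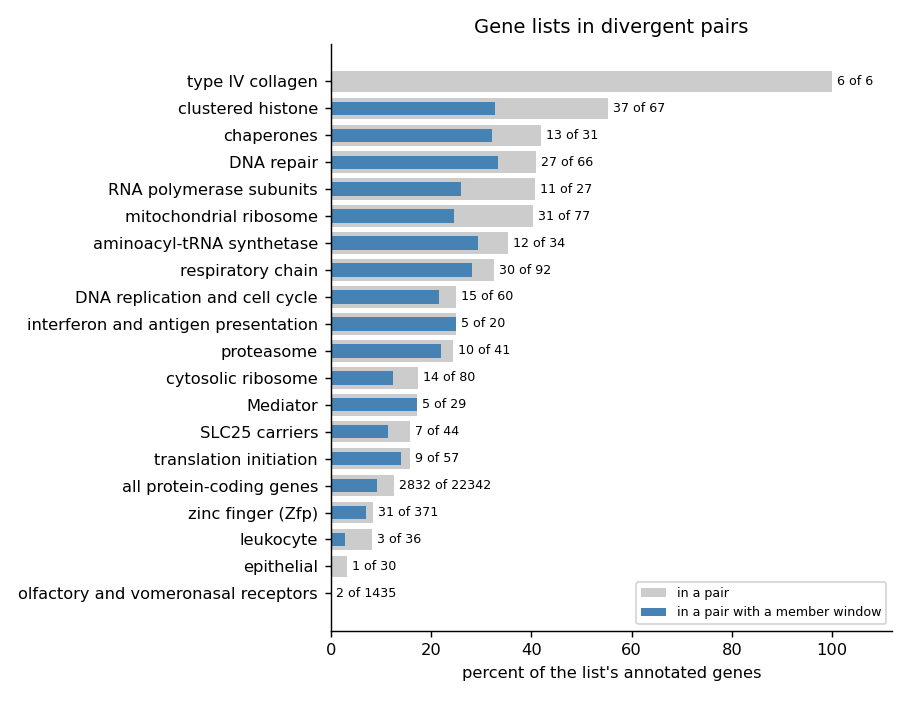
Percent of the annotated genes of each list that are in a pair (grey bars, with counts) and in a pair with a member window (blue bars). The share in pairs runs from 2 of 1435 olfactory and vomeronasal receptor genes to 6 of 6 type IV collagen genes, which have no member window, beside 2832 of 22342 for all protein-coding genes.

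At the edge of the rule, the 83 members whose farther start was 900 to 1000 bp away came from split calls in 37.3% and had a median CpG ratio of 0.610, and the 71 windows just outside, at 1001 to 1100 bp, had 45.1% and 0.623.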

How the data were processed

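Windows came from Pi-ATAC of single cells by the protocol above. Per the methods, the authors clipped adapters, aligned reads to mm9 (Bowtie2 2.1.0), discarded duplicates (Picard 1.79), poorly aligned and mitochondrial reads, called summits on aggregated cells with MACS2 (of a version that the sources used here do not name) and retained 500 bp windows of lowest q-value. What was deposited, and used, was a list of window positions (other values than counts or signal), named by peak and without scores. Names were read as all cells pooled into 1 list, which the methods do not state. Read depth was not analysed here, and no test between samples could be run. Chromosomes 1 and 10 to 13 keep fewer numbered calls than the others. They held 463 of the members (27.2%), 24.3% of one-strand windows and 21.2% of windows away from coding starts. Split calls gave 51.6% of members there and 45.0% on the other chromosomes, and 38.8% and 32.0% of one-strand windows.

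Starts were those of protein-coding transcripts of protein-coding genes (45993 distinct starts) in GENCODE vM1, whose chromosomes match the build. Pairs are pairs of gene identifiers, with 1421 distinct pairs of symbols among the 1436. List genes in pairs were also counted by identifier. Psmb9/Tap1 and Hspa14/Cdnf were entered more than once, which raises the paired counts of the proteasome, chaperone and interferon lists. Sequence was read from NCBIM37. Intervals are Wilson intervals at 95%, with exact binomial intervals for ratios of densities. Weighting used 6 ranges of CpG ratio. Scripts ran in Python 3.11 with pandas and scipy and were checked on simulated starts, windows and sequences. Members, 22 textbook pairs, 19 gene lists and 16 words were chosen with earlier results of these data known. Named pairs are all textbook pairs, the 10 with most windows (ties by smaller gap), the 5 head-to-head pairs with the lowest CpG ratio in a window, and up to 4 pairs per list, of which some are not reported here. Sequences are the first 5 textbook pairs with a window and those of lowest ratio whose whole gap was CpG-poor, a restriction added after seeing the data. The pairs Cd3g/Cd3d, Tjp3/Pip5k1c, Hist1h2an/Hist1h2bp and Hist1h2ah/Hist1h2bk were named after their values were seen.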

Additional observations from a re-analysis of the deposited data

How the results depend on the processing

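Values were recomputed with starts within 500 bp or 2.5 kb, with starts of all transcripts, with the outermost start of each gene, without Gm and Rik genes, without chromosomes 1 and 10 to 13, and on windows of split calls alone. Of 54 recomputed values 37 stayed within the 95% interval of the reported one (for counts, within 1.5 times, and for the median CpG ratio, within its order-statistic interval of 0.774 to 0.792), 17 moved and 0 reversed against its comparator. The 37 include values fixed in advance. With the comparator weighted for CpG, the shares of genes in pairs with a window (78.2%) and of split calls (46.8%) could not change. A reversal was possible only for values with a comparator, namely these shares and the median CpG ratio. At 500 bp the share of midpoints between starts was 47.8% and the median CpG ratio 0.825. At 2.5 kb the split-call share was 43.5% (one-strand 30.1%) and the CpG ratio 0.743. With the outermost start only, 69.6% of members were head-to-head and 33.9% of these lay between starts. Without Gm and Rik genes, 85.4% were head-to-head, 83.8% of genes in pairs had a window and 49.2% of members came from split calls. On split calls alone there were 796 members, which are the split-call members reported above. Of these 84.8% were head-to-head, and their median CpG ratio was 0.772. A window of a split call was found at 28.6% of genes in pairs against 10.3% of others. With 1 start per gene, an alternative added after seeing the data, 72.5% of genes in pairs had a window. Separate words numbered 9 as reported, 4 with one-strand windows weighted for CpG, 5 on split calls alone and 2 in the central 200 bp, and the cause was not tested. Without chromosomes 1 and 10 to 13 no value moved. Merging overlapping windows left 1331 members. No paired analysis was possible because the results come from no test and the list is 1 pooled set, and leaving out replicates or changing a score threshold was not run for the same reason.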
